A study of Mus musculus with 24 samples.

Results

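The cells described here are those of whole Panc02 tumors that carried no UMI (a counted transcript molecule) of Cd3d, Cd3e or Cd3g, the invariant chains of the T cell receptor complex. They were compared between tumors of mice given the vaccine PancVAX and tumors of mice that were not. Panc02 is a murine pancreatic tumor cell line, here implanted under the skin of male C57BL/6 mice of wild-type genotype. A barcode (the tag of a droplet, taken as a cell) was kept at 1000 or more UMIs with under 10% of them from mitochondrial genes. No upper limit was set. Of 144994 barcodes in the series, 58798 of whole tumor passed these limits, and 48570 of them had no Cd3 UMI. Of these, 13408 held a UMI of Ptprc, which encodes the leukocyte marker CD45, and 35162 held none.

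The 8 whole tumor libraries covered all 8 combinations of the vaccine and the 2 antibodies. With PancVAX they were PancVAX alone, PancVAX + anti-PD-1 + anti-CTLA-4, PancVAX + anti-PD-1 and PancVAX + anti-CTLA-4. Without it they were anti-PD-1 + anti-CTLA-4, anti-CTLA-4, anti-PD-1 and isotype control. Values by library are given in this order throughout. The methods of the study list PancVAX with isotype antibodies as the vaccine regimen without checkpoint antibodies, and PBS in place of the vaccine. The treatment labels name neither isotype antibody for the PancVAX pool nor PBS, so PancVAX alone here means without a checkpoint antibody. By the labels, PancVAX peptides (50 ug, an amount that the methods of the study give for each peptide) were given on days 12 and 19 after implantation, anti-PD-1 (100 ug) from day 12 and anti-CTLA-4 (100 ug) on days 15 and 22, and tumors were harvested on day 38. A figure caption of the study gives an earlier second day for anti-CTLA-4 and an earlier day for the tumors. The vaccine also carried the adjuvant AddaVax and a STING agonist, so that the effects of peptides and adjuvants cannot be told apart. Each library was made from a pool of tumors of 1 treatment. The P values compare 4 pools with PancVAX and 4 pools without it, with both antibodies as covariates, and measure the spread between pools, not between mice.

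PancVAX carries long peptides with mutated sequences of Panc02 that T cells can recognize. T cells that meet their antigen secrete interferon-γ, which in macrophages and tumor cells is known to raise MHC molecules, the chemokines Cxcl9 and Cxcl10 and the checkpoint ligand PD-L1 (Cd274). Neutrophils and monocytes enter tumors along other chemokines, among them Cxcl2, and macrophages are often ordered between an inflammatory (M1) and a tissue repair (M2) program. The comparison asks whether genes of these programs differed outside the T cells at harvest.

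The libraries held 4798–7840 of these barcodes each, with 66151732–124741709 summed UMIs. The Ptprc-positive barcodes summed to 10114121–20719719 UMIs per library and the Ptprc-negative ones to 55256109–107274588. Barcodes over 10000 UMIs, which the limits in the methods of the study leave out, made up 50.1%–62.5% of the barcodes and 85.1%–90.8% of their UMIs. Of 47130 distinct barcode sequences, 1411 occurred in more than 1 of the 8 libraries. Over all barcodes of the series, before any limit, pairs of the 16 libraries shared 0.856%–2.433% of the smaller library. The anti-PD-1 + anti-CTLA-4 library stood apart in 11 genes, mostly of the secretions of the seminal vesicle, that were almost absent elsewhere and made up 0.0542% of its UMIs. The PancVAX + anti-PD-1 library had the highest levels of the keratins Krt15 and Krt17. Results that rest on either library are given with that fact.

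The share of barcodes left out did not overlap between the groups. Barcodes with a Cd3 UMI, taken as T cells, made up 22.1% ± 4.88 of passing barcodes with PancVAX and 12.8% ± 0.783 without (SD, n = 4 and 4, exact two-sided permutation P = 0.0286, the smallest the 70 splits allow). Adjusted over the 5 shares and depths tested, this was 0.143. No doublets were removed and this share was not thinned, so other cells with a stray Cd3 UMI can be counted in it. Their part was not tested. Among barcodes without a Cd3 UMI, the Ptprc-positive share was 31.1%, 25.6%, 29.4% and 30.9% with PancVAX and 25.0%, 22.6%, 31.4% and 26.7% without. The groups overlapped, with means of 29.2% ± 2.54 and 26.4% ± 3.73 (exact permutation P = 0.286, n = 4 and 4). Within the limits of the study's methods the shares were 47.1% and 42.6% (exact permutation P = 0.0571). The median UMI count was 11377 ± 806 with PancVAX and 12635 ± 1786 without.

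Macrophage-like and tumor-like barcodes were marked by their own transcripts. The C1q-marked barcodes are Ptprc-positive with at least 0.1% of UMIs from C1qa, C1qb and C1qc, complement genes of tissue macrophages, and numbered 7916. The keratin-marked barcodes are Ptprc-negative with at least 0.05% of UMIs from Krt8 and Krt18, keratins of simple epithelium that carcinoma cells retain, and numbered 26395. The C1q-marked share was 16.3% ± 2.26 with PancVAX and 16.6% ± 1.5 without (exact permutation P = 0.857, n = 4 and 4). The keratin-marked share was 52.4% ± 4.34 and 54.9% ± 9.02 (exact permutation P = 0.686, n = 4 and 4). Neither share differed beyond the spread between pools. The 12 macrophage markers summed to 13971–20920 CPM (UMIs scaled to a common library total) with PancVAX and 15782–20704 CPM without in Ptprc-positive barcodes. In Ptprc-negative barcodes they summed to 322–616 and 329–585 CPM, so the split by Ptprc largely separated macrophages. Neutrophil markers were separated less. They summed to 2194–4040 and 1049–2377 CPM in Ptprc-positive barcodes and to 181–350 and 134–200 CPM in Ptprc-negative ones. The Ptprc-negative barcodes also held more UMIs in all, so part of the neutrophil transcripts lay there. Sums over a list were scaled by the plain total of UMIs. Values of single genes were scaled by the total after TMM normalization, whose factors were 0.938–1.06. These factors were mostly higher with PancVAX, at 1.009–1.04 against 0.949–1.008 in keratin-marked barcodes. Sums on the plain scale therefore lie somewhat higher with PancVAX than they would after TMM, and narrow gaps between them need not hold there.

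**Figure D1:**
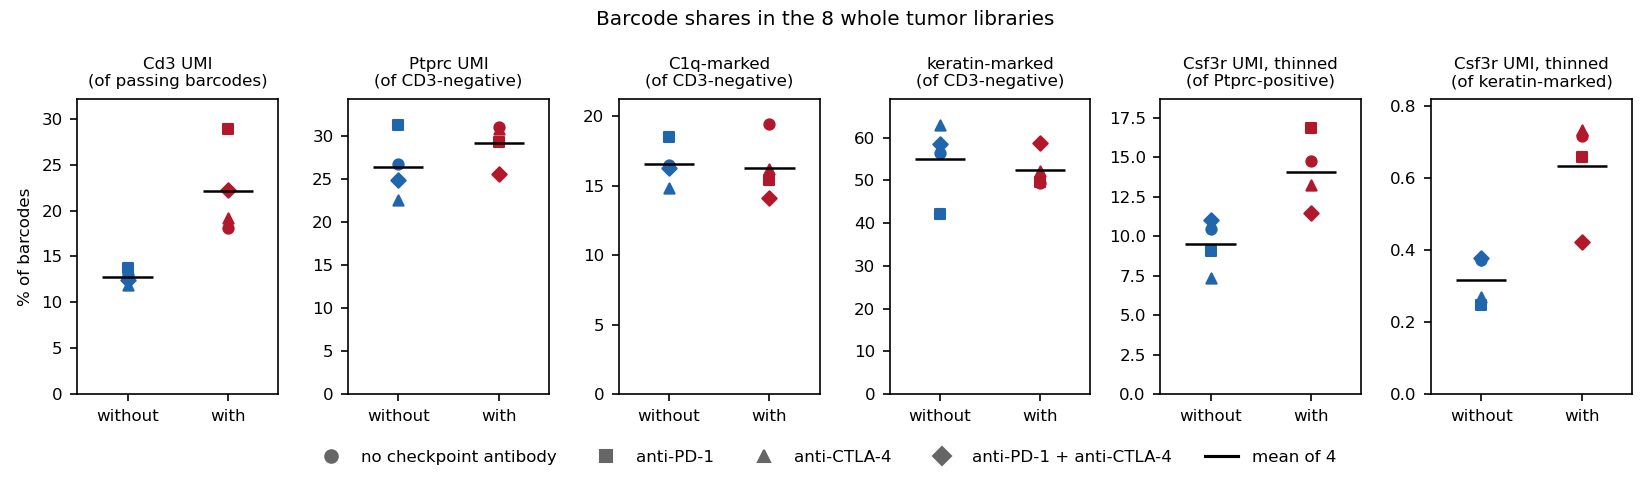
Shares of barcodes in percent (y axis) in the 8 whole tumor libraries without and with PancVAX (x axis); each point is a library, its shape the antibodies given, and the line the mean of 4. The Cd3 shares (22.1% against 12.8%) and the thinned Csf3r shares do not overlap between groups, while the Ptprc, C1q and keratin shares do.

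Few genes passed the test outside the T cells. UMIs were summed per library and gene and tested by edgeR, and a gene was called at an adjusted P under 0.05 with a log2 fold change of at least 0.5 in either direction. No gene was called of 15886 tested in all barcodes (0%), of 12896 in the Ptprc-positive (0%), of 15324 in the Ptprc-negative (0%) or of 11819 in the C1q-marked barcodes (0%). At an unadjusted P under 0.05 there were 2602, 1254, 2669 and 902 genes, which is 16.4%, 9.72%, 17.4% and 7.63% of those tested. DESeq2 called 102, 72, 94 and 7 genes in these sets (0.642%, 0.558%, 0.613% and 0.0592%). In the keratin-marked barcodes edgeR called 3 of 14255 genes (0.021%), Ccrl2, Chac1 and Tff2, of which 1 was higher (0.00702%) and 2 were lower (0.014%) with PancVAX. There, 17.2% of the genes had an unadjusted P under 0.05, and DESeq2 called 36 genes (0.253%). In simulated counts of the same size, edgeR recovered 77.5%, 78.5%, 70% and 87% of 200 genes changed 2-fold in the first 4 sets, and 78% in the keratin-marked one. Those counts were drawn independently at the estimated dispersions, without antibody effects, so this recovery need not hold for the real counts. The lack of calls therefore does not show that no gene changed 2-fold.

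In the keratin-marked barcodes, Ccrl2 rose with PancVAX and Chac1 and Tff2 fell. Ccrl2 encodes an atypical chemokine receptor that binds the chemoattractant chemerin without signaling. It was at 21.9, 26.5, 23.1 and 23.7 CPM with PancVAX and 13.7, 14.9, 11.3 and 10.8 CPM without. All 4 pools with PancVAX lay above all pools without it. The log2 fold change was 0.91 ± 0.07 (SE, edgeR adjusted P = 0.0202), and DESeq2 gave an adjusted P of 2.2e-19. The call was lost without either antibody as a covariate (adjusted P = 0.0762), within the limits of the study's methods (log2 fold change 1.33, adjusted P = 0.169) and without any of 5 of the libraries, while the log2 fold change stayed between 0.88 and 0.99 without any 1 library. Those 5 were PancVAX + anti-PD-1 + anti-CTLA-4, PancVAX + anti-PD-1, anti-PD-1 + anti-CTLA-4, anti-PD-1 and isotype control. When each barcode was thinned to 1000 UMIs, the Ccrl2 log2 fold change moved to 1.45 (edgeR adjusted P = 0.0139). In Ptprc-positive barcodes Ccrl2 was far higher, at 477, 392, 668 and 501 CPM with PancVAX and 334, 224, 326 and 288 CPM without (0.80 ± 0.14, edgeR adjusted P = 0.349). Transcripts of leukocytes were also found in the keratin-marked barcodes, where the neutrophil markers summed to 90.3–116 CPM with PancVAX and 59.0–90.0 CPM without, and the macrophage markers to 111–185 and 110–143 CPM. Their part in the Ccrl2 value was not tested.

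Chac1 encodes an enzyme that degrades glutathione and is a target of the integrated stress response, in which ATF4 turns on genes of amino acid supply. It was at 16.2, 20.3, 13.4 and 17.9 CPM with PancVAX and 33.4, 36.0, 36.4 and 34.6 CPM without. The pools without PancVAX lay close together and all above those with it. The log2 fold change was −1.06 ± 0.10 (edgeR adjusted P = 0.0496). This call stood at the threshold and was lost without any 1 of the 8 libraries, with the log2 fold change between −1.16 and −0.95. It was also lost with the antibody combination as a block (adjusted P = 0.0850), with library size alone, under 5% mitochondrial UMIs and without barcodes with other T cell UMIs, and was kept with RLE normalization, with no filter, at 2000 UMIs, without antibody covariates and by DESeq2. Within the limits of the study's methods, without barcodes over 10000 UMIs, the log2 fold change was −0.01 (adjusted P = 0.995). After each barcode was thinned to 1000 UMIs, which gives each the same weight, it was −0.62 (adjusted P = 0.153). The difference between the effects in Ptprc-positive and Ptprc-negative barcodes was 0.81 for Chac1 (edgeR adjusted P = 0.933).

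Trib3, Cebpg, Gpt2 and Asns, 4 other genes known as ATF4 targets or partners, did not pass the edgeR test, while DESeq2 called Trib3 (adjusted P = 0.000179) and Gpt2 (3.4e-05) and gave Cebpg an adjusted P of 3.1e-05 with a log2 fold change under the limit of 0.5. They were chosen after their values were seen and stand for no list. Trib3, a pseudokinase that ATF4 induces, was at 12.3, 15.8, 8.76 and 8.36 CPM with PancVAX and 23.1, 20.3, 17.5 and 22.5 CPM without (log2 fold change −0.90 ± 0.20, edgeR adjusted P = 0.163). Cebpg, a partner of ATF4 on DNA, was at 39.97, 42.6, 36.1 and 39.0 CPM against 57.9, 50.2, 50.7 and 51.3 CPM (log2 fold change −0.41 ± 0.06, adjusted P = 0.163). Gpt2, a mitochondrial transaminase, was at 8.72, 9.46, 7.75 and 7.84 CPM against 13.3, 11.6, 12.9 and 13.4 CPM (log2 fold change −0.60 ± 0.09, adjusted P = 0.163). In all 3 genes the groups did not overlap, as they did not for 7.98% of the genes tested in this set. Asns, asparagine synthetase, overlapped between groups (69.3 ± 17.3 against 94.8 ± 15.0 CPM, adjusted P = 0.273).

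Tff2 encodes a secreted trefoil peptide of mucous epithelium. In keratin-marked barcodes it had 0, 0, 1 and 0 UMIs with PancVAX and 83, 219, 10 and 23 without. The level without PancVAX was 276.5 times that with it, with an exact 95% interval of 49.3 to 10955 that covers counting error only. The spread among the pools without PancVAX was wide, and the anti-CTLA-4 library alone held 219 of 335 UMIs. Tff2 passed the filter on low counts only through the libraries without PancVAX, so only a fall could be called. DESeq2 gave it no adjusted P. The edgeR adjusted P was 0.0496, and the call was lost without any 1 of the 8 libraries, in the fit without antibodies as covariates (adjusted P = 0.222), with library size alone and with the antibody combination as a block. Tff2 was too low to test under 5% mitochondrial UMIs, within the limits of the study's methods, after thinning and without barcodes with other T cell UMIs.

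The sequence just upstream is shown for Chac1 and Ccrl2, which were called in keratin-marked barcodes. It is also shown for Cxcl2, a chemokine described below, which was not called. The windows are the 250 bases before the annotated start in RefSeq (GRCm38.p6), 5′ to 3′ on the strand of the gene, and of 4 genes looked up 3 matched. Tff2 is named only, and Trib3, Cebpg, Gpt2 and Asns were not looked up. Capitals mark TTGCATCA, a composite element of C/EBP and ATF factors, in Chac1, and the general consensus of the NF-κB element in Ccrl2 and Cxcl2. Both strands were searched. The windows lay at chr2:119350992-119351241 on the plus strand for Chac1, at chr9:111057519-111057768 on the minus strand for Ccrl2 and at chr5:90903649-90903898 on the plus strand for Cxcl2.
Chac1: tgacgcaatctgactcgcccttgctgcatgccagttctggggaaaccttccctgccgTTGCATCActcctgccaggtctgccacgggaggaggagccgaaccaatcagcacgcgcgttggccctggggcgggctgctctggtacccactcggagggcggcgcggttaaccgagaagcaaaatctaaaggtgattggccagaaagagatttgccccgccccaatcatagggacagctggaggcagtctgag
Ccrl2: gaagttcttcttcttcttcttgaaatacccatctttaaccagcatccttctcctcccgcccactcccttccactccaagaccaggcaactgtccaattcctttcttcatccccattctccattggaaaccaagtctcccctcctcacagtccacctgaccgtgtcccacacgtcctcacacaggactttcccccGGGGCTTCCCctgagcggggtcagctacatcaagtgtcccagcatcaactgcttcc
Cxcl2: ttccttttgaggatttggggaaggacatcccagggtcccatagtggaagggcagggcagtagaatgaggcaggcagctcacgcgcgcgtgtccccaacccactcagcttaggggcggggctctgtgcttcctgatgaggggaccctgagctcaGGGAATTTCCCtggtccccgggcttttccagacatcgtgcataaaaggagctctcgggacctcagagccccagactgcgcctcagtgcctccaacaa
TTGCATCA was found 1 time in the Chac1 window, 193 bases before the start, and in 260 of 32851 windows of all genes (0.791%). The NF-κB consensus was found 2 times in the Cxcl2 window, on opposite strands and overlapping in all but 1 base, and 1 time in the Ccrl2 window, 56 bases before the start. It was found in 2382 windows (7.25%). Ccrl2 has 3 annotated starts, of which the window of the first is printed, and neither motif was found in the other 2. A match describes the letters only.

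Antigen presentation genes named here in the keratin-marked barcodes did not pass the test in either direction. H2-K1, the class I heavy chain that presents peptides to CD8+ T cells, was at 772 ± 82.1 CPM with PancVAX and 934 ± 136 CPM without in keratin-marked barcodes (log2 fold change −0.27 ± 0.11, edgeR adjusted P = 0.284). B2m, its light chain, was at 678 ± 77.0 and 810 ± 74.0 CPM (−0.26 ± 0.09, adjusted P = 0.219). Cd274 had a log2 fold change of 0.17 ± 0.19, with groups that overlapped. Cxcl10, which attracts T cells, was at 479, 494, 446 and 276 CPM with PancVAX and 316, 576, 283 and 313 CPM without. The libraries with anti-CTLA-4 as the only antibody were the lowest with PancVAX and the highest without. Cxcl2, which attracts neutrophils, was at 88.9, 147, 111 and 109 CPM against 91.8, 105, 68.2 and 61.4 CPM in the same cells (0.49 ± 0.10, adjusted P = 0.163).

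**Figure D2:**
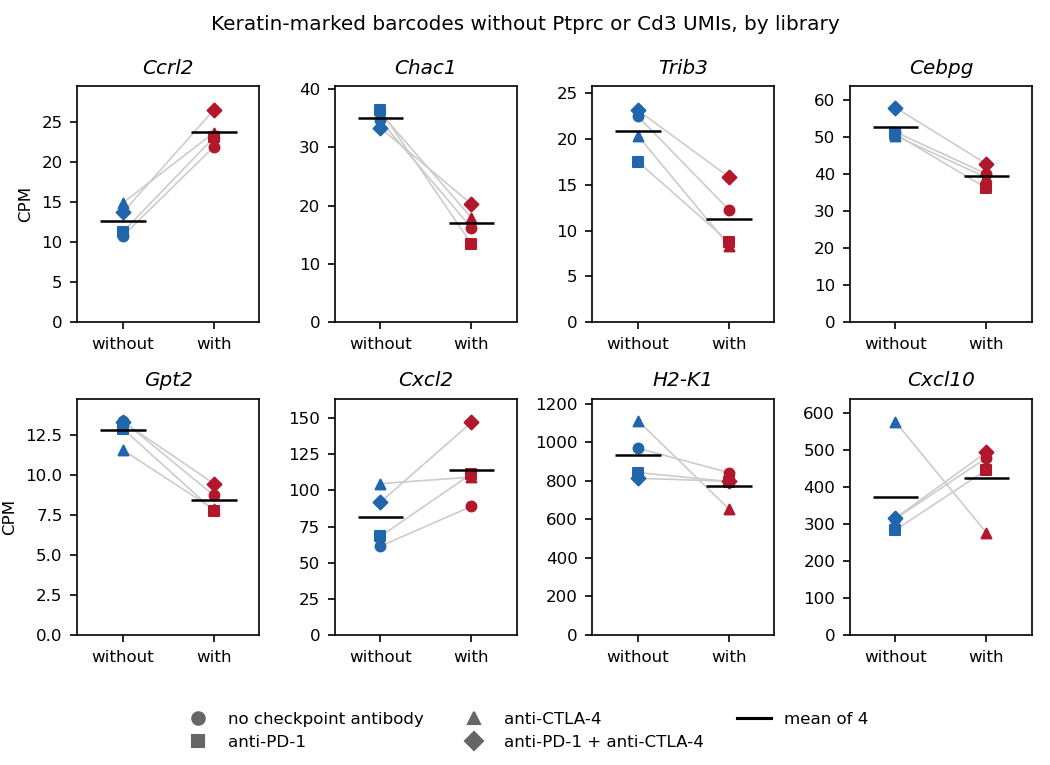
Level in CPM (y axis) of 8 genes in keratin-marked barcodes without and with PancVAX (x axis); each point is a library, grey lines join libraries with the same antibodies, and the black line is the mean of 4. Ccrl2 lies above 21 CPM in each pool with PancVAX and below 15 CPM in each pool without it, Chac1 lies the other way round, and Cxcl10 crosses.

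Among leukocytes, neutrophil genes lay highest with PancVAX relative to other genes. Of 15 neutrophil markers tested in Ptprc-positive barcodes, 15 had a positive log2 fold change, with a median of 0.80, while 51.5% of all genes were positive and their median was 0.01. None was called by edgeR, 10 had an unadjusted P under 0.05 with a positive sign (6.15% of all genes did), and DESeq2 called 3 of them higher (0.535% of all genes). The groups did not overlap in 4 of them (4.58% of all genes). The markers summed to 2648, 2194, 4040 and 3908 CPM with PancVAX and 2377, 1049, 2217 and 1630 CPM without. The lowest pool with PancVAX lay below the highest without it. The median of the list was 0.39 without the PancVAX + anti-CTLA-4 library, 0.51 without the anti-CTLA-4 library and 1.29 under a limit of 5% mitochondrial UMIs. In such sums, more cells of a type and more RNA per cell cannot be told apart.

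Il1r2, a decoy receptor for interleukin-1 that neutrophils carry, was at 253, 238, 418 and 342 CPM with PancVAX and 185, 102, 142 and 140 CPM without. The groups did not overlap (log2 fold change 1.15 ± 0.21, edgeR adjusted P = 0.349, DESeq2 adjusted P = 6.04e-07). Mmp9, gelatinase B of neutrophil granules, was at 92.8, 44.0, 73.0 and 77.7 CPM against 34.1, 20.6, 35.8 and 36.8 CPM (1.16 ± 0.21, adjusted P = 0.349). Hdc, which makes histamine, was at 70.7, 69.5, 130 and 83.9 CPM against 64.6, 25.8, 51.9 and 40.6 CPM (0.99 ± 0.22, adjusted P = 0.367). All 3 were lowest in the anti-CTLA-4 library and separated the groups. S100a8 and S100a9, the subunits of calprotectin, had log2 fold changes of 0.82 ± 0.33 and 0.80 ± 0.30.

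Csf3r, the receptor of the neutrophil growth factor G-CSF, was at 59.6, 44.0, 71.0 and 53.6 CPM with PancVAX and 45.4, 26.4, 49.9 and 39.0 CPM without (0.53 ± 0.15, edgeR adjusted P = 0.411). The groups overlapped by level. By barcodes, in a measure added after the values were seen, a Csf3r UMI was found in 14.8%, 11.5%, 16.9% and 13.2% of thinned Ptprc-positive barcodes with PancVAX and 11.1%, 7.35%, 9.10% and 10.5% without. The thinned shares did not overlap, while the unthinned ones did (27.7% ± 2.41 and 23.4% ± 2.64, SD, n = 4 and 4). In keratin-marked barcodes, which should lack Csf3r, the same shares were 0.633% ± 0.144 and 0.317% ± 0.0672 (SD, n = 4 and 4), which also did not overlap. Before thinning, the median depth per library was 4603.5–7772 UMIs in Ptprc-positive and 17054–19724 UMIs in keratin-marked barcodes. On the plain scale the neutrophil markers summed to 90.3–116 CPM with PancVAX and 59.0–90.0 CPM without in those keratin-marked barcodes, a narrow gap. The part of free RNA in these values was not tested.

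Cxcl2, Clec4e, Il1b, Tnf and Nlrp3, inflammatory genes that neutrophils and macrophages share, were chosen after their values were seen, stand for no list and did not pass the edgeR test, while DESeq2 called all 5 (adjusted P from 0.0102 for Nlrp3 to 0.0446 for Clec4e). Cxcl2 was at 1145, 1174, 1833 and 1812 CPM with PancVAX and 976, 453, 910 and 623 CPM without in Ptprc-positive barcodes, without overlap (1.07 ± 0.24, edgeR adjusted P = 0.385). Clec4e, the Mincle receptor for microbial glycolipids, was at 59.5, 55.1, 96.6 and 88.5 CPM against 42.7, 19.7, 46.0 and 26.9 CPM (1.22 ± 0.26, adjusted P = 0.367). Il1b, the cytokine interleukin-1β, was at 2032 ± 338 CPM against 1438 ± 264 CPM without overlap (0.51 ± 0.15, adjusted P = 0.415). Tnf, which encodes tumor necrosis factor, overlapped, at 57.1, 49.9, 99.2 and 77.5 CPM against 50.3, 37.2, 43.8 and 39.9 CPM (0.73 ± 0.20, adjusted P = 0.411). Nlrp3, the inflammasome sensor, had a log2 fold change of 0.77 ± 0.21 (adjusted P = 0.403). PancVAX + anti-PD-1 and PancVAX + anti-CTLA-4 were the highest pools for Il1r2, Clec4e, Cxcl2, Tnf and Il1b. They were also the highest for the 20 genes of dissociation stress, immediate early and heat shock genes that tissue digestion is known to raise, which summed to 12360–14831 CPM with PancVAX and 11330–13423 CPM without in these barcodes. In the C1q-marked barcodes the sums were 10341–12302 and 9364–10654 CPM. The part of this in the inflammatory genes was not tested.

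The number of calls was larger after thinning and without 1 pool. After thinning to 1000 UMIs, edgeR called 19 of 8937 genes that could be tested in Ptprc-positive barcodes (0.213%), among them Il1r2 (1.03, adjusted P = 0.0430), Clec4e (1.10, adjusted P = 0.0451), Cxcl2 (0.94, adjusted P = 0.0473) and Tnf (1.10, adjusted P = 0.0473). Without the PancVAX alone library it called 24, and without any other library it called none. By the difference between Ptprc-positive and Ptprc-negative barcodes, no gene was called of 15281 (0%), and 772 had an unadjusted P under 0.05. For Il1b the effect in Ptprc-positive barcodes was smaller by 0.38 on the log2 scale and for Tnf by 0.58 (edgeR adjusted P = 0.933 for both). Since the Ptprc-negative set also held neutrophil transcripts, this difference does not set leukocytes against tumor cells alone.

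**Figure D3:**
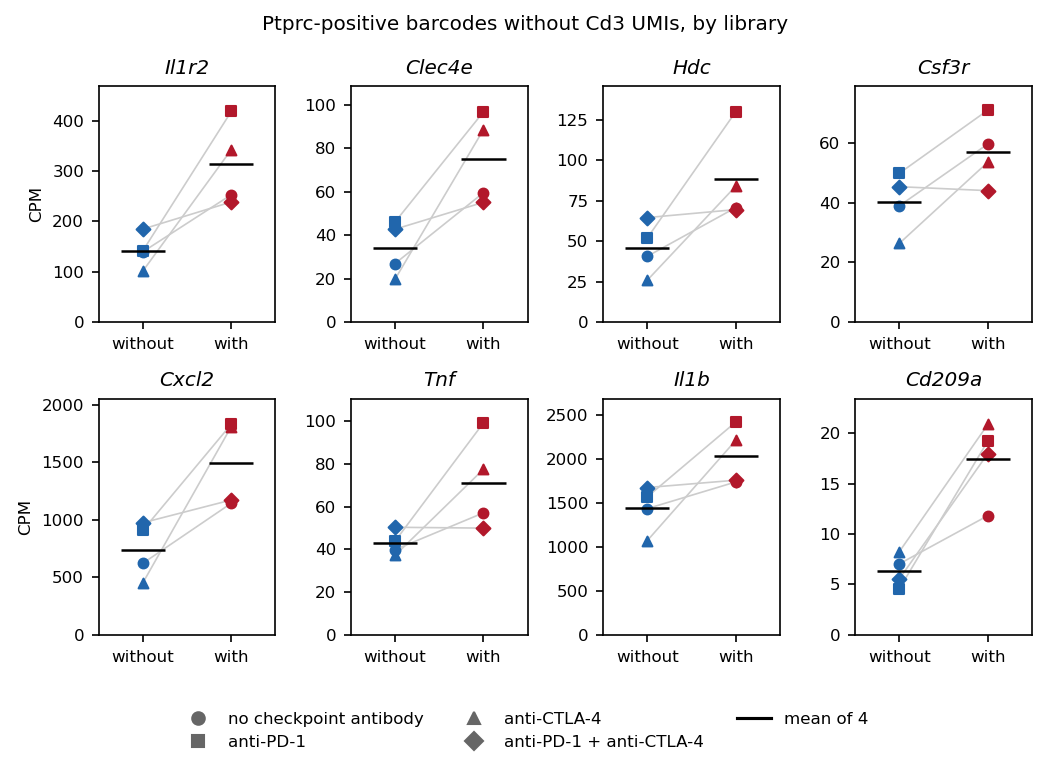
Level in CPM (y axis) of 8 genes in Ptprc-positive barcodes without Cd3 UMIs, without and with PancVAX (x axis); points are libraries, grey lines join libraries with the same antibodies, and black lines are means of 4. Il1r2, Clec4e, Hdc, Cxcl2, Il1b and Cd209a do not overlap between groups, and Csf3r and Tnf do.

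EdgeR called no dendritic cell marker in Ptprc-positive barcodes, and DESeq2 called 1 higher (0.535% of all genes). Of 14 markers tested in Ptprc-positive barcodes, 11 were positive (51.5% of all genes were) with a median log2 fold change of 0.51, and 6 had an unadjusted P under 0.05 with that sign (6.15% of all genes did). The median was 0.02 after thinning, 0.15 within the limits of the study's methods, 0.18 without the PancVAX + anti-PD-1 library and 0.27 without the PancVAX + anti-CTLA-4 library. Cd209a, the DC-SIGN homolog of monocyte-derived and conventional type 2 dendritic cells, was at 11.8, 18.0, 19.2 and 20.9 CPM with PancVAX and 5.57, 8.25, 4.59 and 7.05 CPM without. The groups did not overlap, and it had the smallest unadjusted P of the set (1.45 ± 0.21, edgeR adjusted P = 0.349, DESeq2 adjusted P = 7.33e-07). Flt3, a growth factor receptor of dendritic cells, had a log2 fold change of 0.76 ± 0.24 and Zbtb46, a transcription factor of conventional dendritic cells, one of 0.65 ± 0.20, both with overlap. Clec9a of cross-presenting dendritic cells was at 30.7 ± 6.64 and 25.4 ± 7.06 CPM, and its log2 fold change of 0.29 turned to −0.16 after thinning. In the C1q-marked barcodes 3 of 10 markers tested were positive (49.8% of all genes were) and the median was −0.17.

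Costimulatory and macrophage program genes were measured in the same barcodes. Cd80, which binds CD28 and CTLA-4, was at 27.7, 31.7, 56.0 and 35.5 CPM with PancVAX and 26.3, 16.9, 23.4 and 22.8 CPM without, which did not overlap (0.74 ± 0.18, edgeR adjusted P = 0.385). Cd86, its partner ligand, was at 81.2 ± 13.1 and 67.4 ± 11.7 CPM (0.27 ± 0.07, adjusted P = 0.403). Of M1-type genes 11 of 14 were positive with a median of 0.25, and of M2-type genes 14 of 18 with a median of 0.30 (51.5% of all genes were positive). The M1-type median was 0.10 without the PancVAX library and 0.16 without the isotype control library, and the M2-type median 0.15 within the limits of the study's methods and 0.19 without the anti-CTLA-4 library. EdgeR called no gene of either, and DESeq2 called 3 and 2 higher (0.535% of all genes). Il10, an inhibitory cytokine of the M2-type list, was at 8.28, 6.14, 9.75 and 14.6 CPM against 4.69, 3.05, 5.01 and 4.23 CPM, without overlap (1.21 ± 0.29, adjusted P = 0.385).

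Within the C1q-marked macrophages, 15 of 18 M2-type genes were positive (49.8% of all genes were) with a median log2 fold change of 0.29, 8 had an unadjusted P under 0.05 with that sign (4.75% of all genes did) and 3 did not overlap between groups (4.02% of all genes). Mrc1, the mannose receptor CD206, was at 297, 264, 275 and 308 CPM with PancVAX and 237, 195, 245 and 205 CPM without (0.38 ± 0.09, edgeR adjusted P = 0.572). Cd86 of the M1-type list was at 104 ± 13.7 and 86.0 ± 13.2 CPM, which overlapped (0.28 ± 0.07, adjusted P = 0.572). On the plain scale the M1-type genes summed to 3099, 3696, 4146 and 3891 CPM with PancVAX and 3323, 2904, 3371 and 3269 CPM without. All pools with PancVAX except PancVAX alone lay above those without it. Whether the M2-type genes moved more than these was not tested. For the M2-type genes the sums on that scale were 1531–1838 and 1311–1496 CPM, a narrow gap. In the main fit Mmp9, a member of both the M2-type and the neutrophil list, came nearest to the threshold. It was at 54.5, 29.2, 40.6 and 39.2 CPM against 18.0, 16.1, 19.4 and 25.5 CPM, without overlap (1.04 ± 0.11, adjusted P = 0.0516). It passed with RLE normalization (edgeR adjusted P = 0.0497), with library size alone, with no filter, at 2000 UMIs, without other T cell UMIs and by DESeq2 (adjusted P = 7.09e-08), and not with the antibody combination as a block (edgeR adjusted P = 0.119), without antibody covariates, under 5% mitochondrial UMIs, within the limits of the study's methods or after thinning (0.150). Without any 1 library the adjusted P was between 0.0222 and 0.490. Other genes were called in these barcodes both after thinning and within the limits of the study's methods. Malt1 (log2 fold changes 0.82 and 0.73), Thbs1 (0.68 and 0.67), Cxcl1 (1.32 and 1.51), Egr1 (0.70 and 0.99) and the gene model Gm26917 were higher with PancVAX. Cxcl14 (−0.74 and −0.65) and mt-Atp8 (−0.94 and −0.95) were lower. None of them was called in the main fit. Arg1, arginase of M2-type and suppressive myeloid cells, was at 34.9 ± 27.9 and 42.9 ± 11.2 CPM (−0.51 ± 0.43, adjusted P = 0.801). Neutrophil markers summed to 396–813 and 326–560 CPM in the C1q-marked barcodes, and their part in the Mmp9 value was not tested. The macrophage markers themselves had a median of −0.03 there and of −0.17 in all Ptprc-positive barcodes.

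The interferon-γ program did not separate the groups at harvest. In Ptprc-positive barcodes Cxcl9, which attracts CXCR3+ T cells, was at 1009, 582, 588 and 427 CPM with PancVAX and 857, 585, 817 and 546 CPM without (−0.12 ± 0.26, edgeR adjusted P = 0.928). The PancVAX alone library was the highest and PancVAX + anti-CTLA-4 the lowest of all 8. H2-Aa, a class II chain, had a log2 fold change of −0.03 ± 0.07, H2-K1 of −0.08 ± 0.07 and Cxcl10 of 0.19 ± 0.16. Cd274 was at 79.9 ± 18.1 and 65.0 ± 6.59 CPM (0.27 ± 0.14, adjusted P = 0.570). Itgax (CD11c), Adgre1 (F4/80) and Ly6c2 of monocytes had log2 fold changes of −0.14 ± 0.07, −0.08 ± 0.13 and 0.21 ± 0.31. Ly6g was too low to test in any set and Nos2, the inducible nitric oxide synthase, in the Ptprc-positive, C1q-marked and keratin-marked ones.

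**Figure D4:**
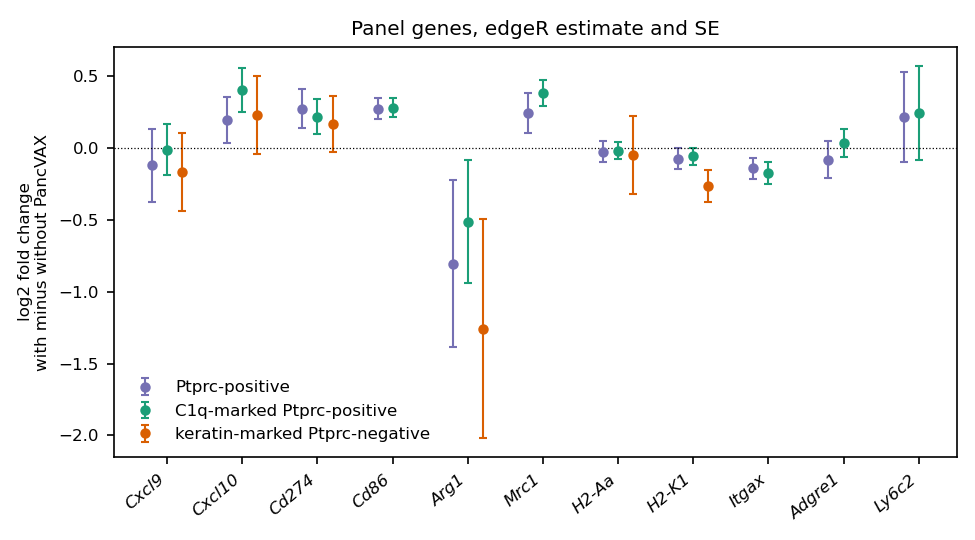
Log2 fold change with minus without PancVAX (y axis) of the panel genes (x axis) by edgeR in 3 barcode sets, with bars of 1 SE; keratin-marked values are drawn for genes with a mean of at least 5 CPM. H2-Aa and H2-K1 lie near 0 in Ptprc-positive barcodes with short bars, and Arg1 lies below 0 with wide ones.

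The interferon-stimulated genes had a median log2 fold change of 0.03 in Ptprc-positive barcodes (29 of 40 positive, 51.5% of all genes) and 0.14 in Ptprc-negative ones (32 of 40 positive, 51.7% of all genes). EdgeR called none of them, and DESeq2 called 1 in each set (0.558% and 0.613% of all genes). The GTPases and guanylate-binding proteins that interferon-γ induces had medians of 0.03 and 0.04, class I presentation genes 0.01 and 0.03, and class II presentation genes −0.03 and −0.07. Ifi205, an interferon-inducible DNA sensor, was the interferon gene with the smallest P in Ptprc-negative barcodes, at 21.5, 16.9, 22.8 and 21.5 CPM with PancVAX and 15.2, 13.0, 16.1 and 12.6 CPM without (0.54 ± 0.11, edgeR adjusted P = 0.160). T cell-attracting chemokines had medians of 0.25 and 0.19, checkpoint and costimulatory ligands 0.16 and 0.12, and complement genes 0.05 and 0.24. B and plasma cell markers had medians of −0.44 and −0.47 and NK cell markers −0.11 and 0.02. In Ptprc-positive barcodes the B and plasma cell markers summed to 390, 367, 160 and 431 CPM with PancVAX. Without it they summed to 453, 277, 771 and 323 CPM, so the groups overlapped. Both the lowest and the highest sum came from libraries with anti-PD-1 as the only antibody.

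In the Ptprc-negative barcodes, the genes of hypoxia and glycolysis lay below 0, with 6 of 25 positive (51.7% of all genes were), a median of −0.20, and 7 with an unadjusted P under 0.05 and a negative sign (9.44% of all genes). The median was −0.04 without the PancVAX + anti-CTLA-4 library and −0.12 when only the library size was used for scaling. Mif, a cytokine that hypoxia induces, was at 1297, 1144, 1052 and 1009 CPM with PancVAX and 1520, 1593, 1397 and 1424 CPM without, which did not overlap (−0.40 ± 0.09, edgeR adjusted P = 0.160). Pdk1, which keeps pyruvate from the mitochondria, was at 17.8, 15.5, 16.1 and 10.7 CPM against 18.5, 18.5, 21.1 and 19.3 CPM (−0.38 ± 0.11, adjusted P = 0.182). Hilpda, a lipid droplet protein of the same list, was at 107 ± 4.94 and 88.7 ± 13.7 CPM. The groups did not overlap for 7.8% of all genes in this set.

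Cell cycle genes had a median of −0.09, with 5 of 28 positive (51.7% of all genes were in Ptprc-negative barcodes). Ube2c, a ubiquitin carrier of mitotic exit, was at 225 ± 38.7 and 279 ± 29.9 CPM (−0.32 ± 0.08, edgeR adjusted P = 0.161), and Hmgb2, a chromatin protein of dividing cells, at 495 ± 37.0 and 573 ± 34.7 CPM without overlap (−0.21 ± 0.06, adjusted P = 0.178). Of 18 genes of the transforming growth factor β pathway 15 were positive with a median of 0.11. Skil, a feedback repressor of the pathway, was at 121 ± 18.7 and 95.3 ± 3.38 CPM. Bgn, the matrix proteoglycan biglycan, was at 325, 397, 450 and 311 CPM with PancVAX and 273, 195, 247 and 309 CPM without (0.52 ± 0.13, adjusted P = 0.162).

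EdgeR called no gene of the stromal lists. DESeq2 called 2 endothelial genes and 1 fibroblast gene higher in Ptprc-negative barcodes (0.463% of all genes). It called 3 fibroblast genes lower in keratin-marked barcodes (0.119% of all genes). Endothelial markers had a median of 0.51 in Ptprc-negative barcodes (14 of 15 positive, 51.7% of all genes). Cldn5, a tight junction protein of vessels, was at 5.15 ± 1.33 and 3.37 ± 0.480 CPM (0.62 ± 0.20, edgeR adjusted P = 0.198). Within the limits of the study's methods the log2 fold change of Cldn5 turned negative. The endothelial median was 0.25 without the PancVAX + anti-PD-1 library and 0.29 without the PancVAX + anti-CTLA-4 library. The fibroblast and matrix list had a median of 0.07 there and of −0.37 in the keratin-marked barcodes, where 9 of 27 genes had an unadjusted P under 0.05 with a negative sign (8.85% of all genes). Col1a2, a collagen I chain, was at 4.70, 1.69, 3.37 and 3.31 CPM with PancVAX and 11.7, 5.93, 14.2 and 11.2 CPM without in those barcodes (−1.71 ± 0.28, adjusted P = 0.163). Within the limits of the study's methods its log2 fold change was 0.60, and the median of the list was −0.07 (−0.09 after thinning).

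Basal keratinocyte markers had a median of 1.71 in Ptprc-negative barcodes, of 0.97 without the PancVAX + anti-PD-1 library and of 0.52 without the PancVAX + anti-CTLA-4 library. Krt15, a keratin of basal epidermis and hair follicles, was at 29.7 CPM in the PancVAX + anti-PD-1 library, at 1.10, 5.54 and 14.2 CPM in the other libraries with PancVAX and at 0.698–2.84 CPM without it. Krt17 was at 10.4 CPM in that library and at 2.03 CPM or less elsewhere. Lgals7, galectin-7 of stratified epithelium, had the opposite sign, at 963, 1197, 1034 and 966 CPM with PancVAX and 1889, 1277, 1120 and 1003 CPM without (−0.31 ± 0.11, edgeR adjusted P = 0.234). The list, of which Lgals7 is the most abundant member, summed on the plain scale to 1009–1572 CPM with PancVAX and 1034–1835 CPM without, with the highest sum in anti-PD-1 + anti-CTLA-4. The source of these transcripts was not tested. Hemoglobin and other erythroid genes had a median of 2.39 in 5 genes tested, with summed levels of 2.16–97.3 CPM with PancVAX and 0.62–51.9 CPM without that overlapped. That median was 0.63 without the PancVAX + anti-PD-1 library and −0.44 for barcodes of at least 2000 UMIs.

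T cell transcripts other than Cd3 remained in the barcodes. Over all barcodes 15 of 19 markers were positive (51.9% of all genes were) with a median of 0.36. On the plain scale they summed to 26.04–38.0 CPM with PancVAX and 22.1–25.7 CPM without, which did not overlap but left a narrow gap. Cd8b1, a chain of the CD8 coreceptor, was at 1.11, 1.55, 1.62 and 1.78 CPM against 0.731, 0.727, 0.440 and 1.07 CPM (1.04 ± 0.27, edgeR adjusted P = 0.185), without overlap, as for 7.33% of all genes. Barcodes with a UMI of another T cell gene made up 5.94% ± 1.29 with PancVAX and 4.66% ± 0.740 without (exact permutation P = 0.114, n = 4 and 4). Removing them left no gene called in all, Ptprc-positive or Ptprc-negative barcodes, and 1 each in the C1q-marked and keratin-marked ones.

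**Figure D5:**
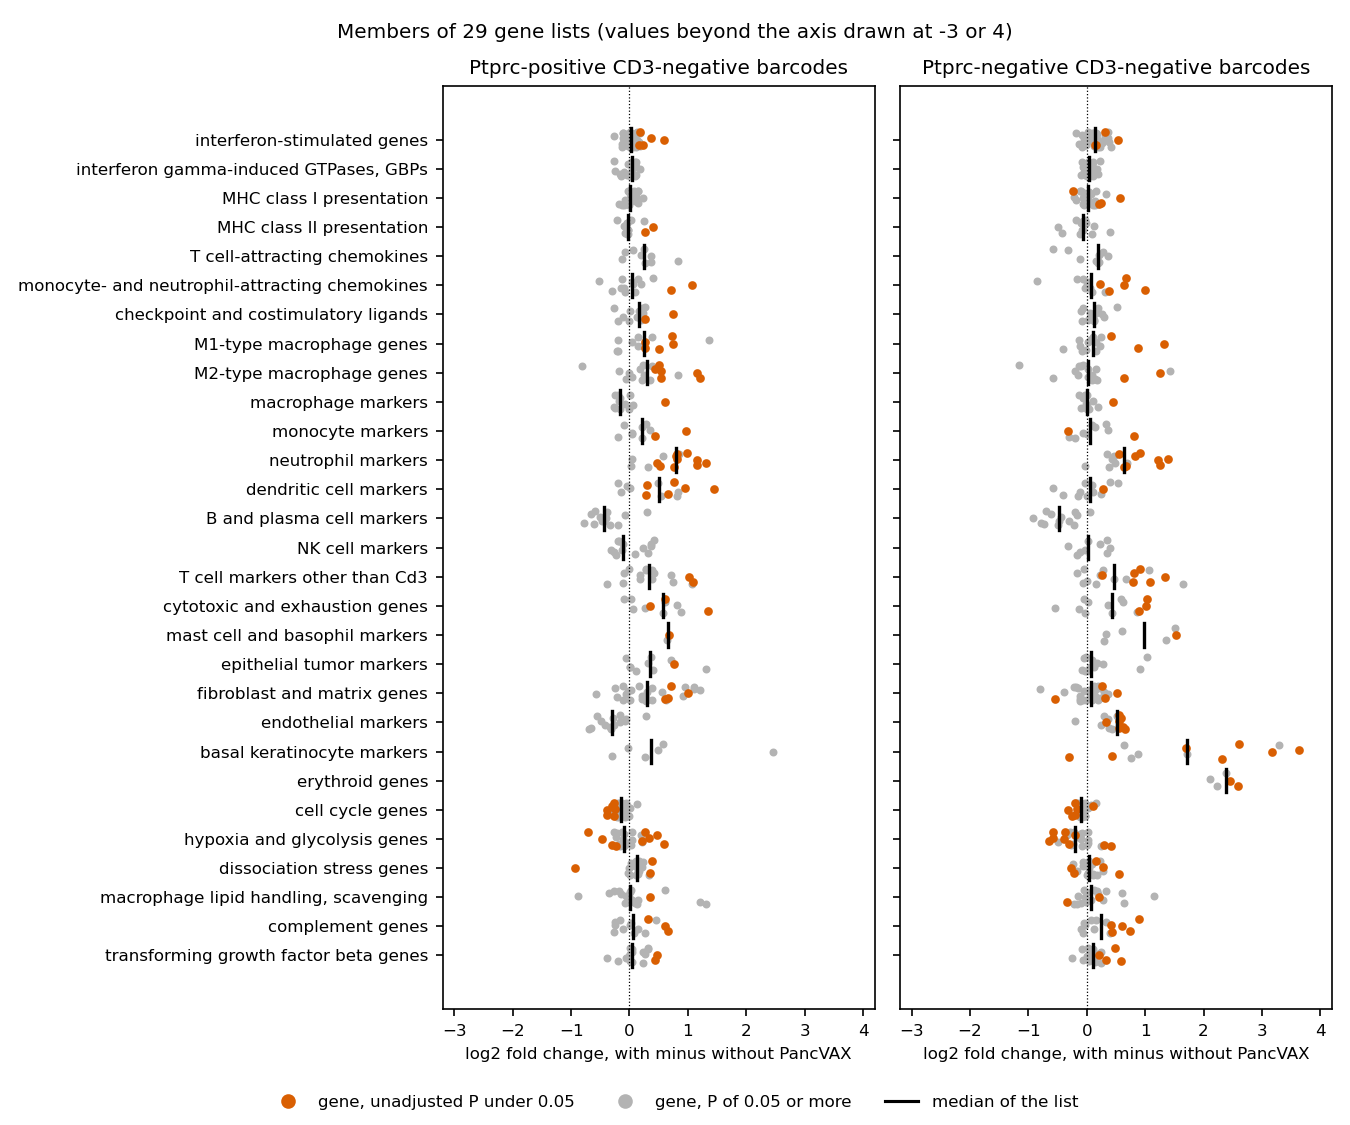
Log2 fold change with minus without PancVAX (x axis) of the tested members of 29 gene lists (y axis) in Ptprc-positive and Ptprc-negative barcodes; each point is a gene, orange at an unadjusted edgeR P under 0.05, and the bar is the median of the list. The neutrophil list lies to the right of 0 in both sets (medians 0.80 and 0.64), and the interferon, class I and class II lists lie around 0.

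The same treatments were also measured after a Percoll gradient meant to enrich immune cells, in a separate sequencing batch of 8 libraries. The sources used here do not say whether both came from the same tumors. Among barcodes without a Cd3 UMI the Ptprc-positive share was 22.4%–31.6% in these libraries and 22.6%–31.4% in whole tumor, so it was not higher after Percoll. The 11 genes that marked the anti-PD-1 + anti-CTLA-4 library of whole tumor had 339 UMIs in the Ptprc-positive barcodes of the Percoll library of that treatment, 25 in PancVAX + anti-PD-1 + anti-CTLA-4 and at most 1 in each other one, so the Percoll values are not taken as independent. In 13329 Ptprc-positive barcodes without Cd3 UMIs of those libraries, edgeR called 3 of 12973 genes (0.0231%), and 13.7% had an unadjusted P under 0.05. The neutrophil list had a median of 0.38 with 13 of 15 positive (48.1% of all genes were), and the dendritic cell list of 0.40 with 11 of 14 positive. Il1r2 had a log2 fold change of 0.87 (edgeR adjusted P = 0.146), Hdc of 0.99 (adjusted P = 0.123), Clec4e of 0.96 (adjusted P = 0.197), Cxcl2 of 0.78 (adjusted P = 0.197) and Cd209a of 1.14 (adjusted P = 0.195). Nlrp3 had one of 0.78 (adjusted P = 0.225), Mmp9 of 0.68 (adjusted P = 0.357), Tnf of 0.40 (adjusted P = 0.268), Csf3r of 0.38 (adjusted P = 0.231) and Il1b of 0.24 (adjusted P = 0.484). None of these was among the 3 called. The interferon-γ GTPase list had a median of −0.17 and the class I list of 0.01.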

How the data were processed

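Dissociated tumors, pooled by treatment, were sequenced on 10x Chromium 5′ libraries. The authors aligned and counted reads with Cell Ranger 4.0.0 (mm10 per the labels), and the deposited values are raw UMI counts per gene and barcode for 16 libraries, which the barcode table assigns to samples. The 8 whole tumor libraries were used, with the 8 Percoll libraries for comparison. Whole tumor and Percoll libraries are the 2 sequencing batches. Rows of the matrix cover 32285 genes. No doublet caller was run and no upper UMI limit was set, so doublets remain.

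Counts were summed per library over barcodes with at least 1000 UMIs, under 10% mitochondrial UMIs and no Cd3d, Cd3e or Cd3g UMI, and tested with the quasi-likelihood test of edgeR 4.0.16 (R 4.3.3, TMM, filter on low counts, PancVAX + anti-PD-1 + anti-CTLA-4 as terms, Benjamini-Hochberg adjustment). The SE is the log2 fold change over the root of its F statistic. CPM of a gene are UMIs scaled to the TMM-normalized total of the summed set, and summed CPM of a list use the plain total. Tests were checked on simulated counts. Shares were compared by exact permutation over 70 splits, and intervals and floors cover counting error only.

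Alternatives were DESeq2 1.42.0, other normalizations, no filter, other barcode limits, thinning, no covariates, a block and leaving out each library. Thinning draws 1000 UMIs per barcode. The members and lists were chosen with earlier results of these data known. Named were called genes, a fixed panel (Cxcl9, Cxcl10, Cd274, Cd86, Nos2, Arg1, Mrc1, H2-Aa, H2-K1, Itgax, Adgre1, Ly6c2, Ly6g) and up to 4 members of each list with the lowest P. Ccrl2, Chac1, Tff2, Trib3, Cebpg, Gpt2, Asns, Col1a2, B2m and Cxcl2 in keratin-marked barcodes, Il1r2, Clec4e, Nlrp3, Cxcl2, Tnf, Il1b, Cd209a, Mmp9 and Csf3r in Ptprc-positive ones, S100a8 and S100a9, and Mmp9 and Mrc1 in C1q-marked ones were chosen after their values were seen. Some genes the rule names are not reported here. Libraries with the same antibodies did not deviate together in every pair (correlations from −0.35 to 0.36 over genes), so they were not treated as pairs.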

Additional observations from a re-analysis of the deposited data

Results flagged for a closer look

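In groups of 4 libraries, a library far from the other 3 was looked for in 190 groups of values and found in 13. Chance gives about 1 in 20 for values not chosen beforehand. Svs4 and Svs5 were included because nearly all their UMIs lay in 1 library, and many genes were chosen after their values were seen. The count therefore cannot be set against that rate. The share of barcodes with a UMI of another T cell gene was 4.01% in the PancVAX library against 6.46% to 6.73% in the others with PancVAX, and 3.56% in 1 library without PancVAX against 4.90% to 5.17%. Without PancVAX, Mmp9 (20.6 CPM) and Cd274 (55.2 CPM) in Ptprc-positive barcodes had 1 low library, and Cebpg (57.9 CPM) and Cxcl10 (576 CPM) in keratin-marked barcodes had 1 high library. With PancVAX, Tff2 in keratin-marked barcodes was at 0.0202 CPM in 1 library, from 1 UMI, and at 0 in the other 3.

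In Ptprc-negative barcodes, Irf7, an interferon regulatory factor, was at 31.0 CPM in 1 library without PancVAX against 24.5 to 24.9 CPM. Eng, an endothelial coreceptor, was at 19.2 CPM in 1 library with PancVAX and 14.2 CPM in 1 without. Tcap, a sarcomere gene, was at 9.47 CPM in 1 library without PancVAX against 1.31 to 1.85 CPM.

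Svs4 and Svs5, seminal vesicle secretory proteins, had 14685 and 16307 UMIs in the anti-PD-1 + anti-CTLA-4 library and at most 1 UMI in each other library.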

How the results depend on the processing

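Of 1588 comparisons of named genes with an alternative, 1491 kept direction and side of the threshold, 46 passed it only in the alternative, 33 lost it and 18 changed sign. Only Ccrl2, Chac1 and Tff2 in keratin-marked barcodes were called to begin with, so all 33 losses were theirs. Nearly all of the 1491 were genes called neither before nor after, so this count does not show that the calls were stable. For the calls over all, Ptprc-positive, Ptprc-negative, C1q-marked and keratin-marked barcodes (0, 0, 0, 0 and 3 genes), DESeq2 gave 102, 72, 94, 7 and 36. No filter on low counts gave 9, 2, 15 and 11 in the first 4 sets, of which 6, 2, 7 and 6 were among the genes found almost only in the anti-PD-1 + anti-CTLA-4 library. Thinning gave 19 in the Ptprc-positive and 12 in the C1q-marked set. In the C1q-marked set the limits of the study's methods gave 16, and RLE normalization, library size alone, at least 2000 UMIs and removal of barcodes with other T cell UMIs gave 1 each. At least 2000 UMIs gave 2 in the Ptprc-negative set. In the keratin-marked set, library size alone, no antibody covariates, under 5% mitochondrial UMIs and removal of barcodes with other T cell UMIs gave 1 each, and the limits of the study's methods 0. Leaving out 1 library gave 0 to 1, 0 to 24, 0 to 3, 0 to 37 and 0 to 6 calls in the 5 sets. The 24, 37 and 6 came without the PancVAX library, the 1 and 3 without PancVAX + anti-PD-1 + anti-CTLA-4. The difference in the Ptprc share was 1.53 to 4.48 percentage points without 1 library. The cause of these changes was not tested. With the antibody combination as a replicate block, the calls were 0, 0, 0, 0 and 3, and Chac1 and Tff2 were no longer among them (edgeR adjusted P = 0.0850 for Chac1).

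The log2 fold changes that changed sign lay near 0 in most cases. In Ptprc-positive barcodes Clec9a was −0.16 and Ly6c2 −0.14 after thinning, Ly6c2 −0.22 within the limits of the study's methods, and H2-Aa 0.015 with library size alone. Without 1 library, Cxcl9 was −0.49 to 0.040, H2-Aa −0.082 to 0.0040, Adgre1 −0.20 to 0.020 and Ly6c2 −0.082 to 0.52. In keratin-marked barcodes within those limits, Col1a2 was 0.60, Col1a1 0.21 and Cxcl9 0.022, and Cxcl9 was 0.085 after thinning and −0.39 to 0.14 without 1 library. Cldn5 in Ptprc-negative barcodes was −0.059 within those limits. Library size alone moved the median over all genes to 0.087 in all barcodes and by no more than 0.091 in any set. In counts simulated at the depths of these libraries edgeR called 70% to 87% of 2-fold changes, and smaller changes and other depths were not simulated. The simulated counts had no antibody effects, so this share need not hold for the real counts.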

Other observations

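Actg2, Acta1, Des and Tcap, 4 genes of muscle looked at after their values were seen in Ptprc-negative barcodes, did not pass the edgeR test and stand for no list, while DESeq2 called Actg2, Des and Tcap. Actg2, smooth muscle γ-actin, came nearest to the threshold of all genes there, at 5.83, 2.86, 4.94 and 3.13 CPM with PancVAX and 4.87, 6.32, 10.9 and 13.6 CPM without, which overlapped (log2 fold change −1.04 ± 0.09, edgeR adjusted P = 0.0663). It was called at 2000 UMIs (edgeR adjusted P = 0.0497), with no filter, without the PancVAX + anti-PD-1 + anti-CTLA-4 library (0.0335) and by DESeq2 (1.99e-14), and in no other setting tried. Acta1, skeletal muscle actin, was at 18.0 ± 3.37 and 25.6 ± 5.33 CPM (−0.49 ± 0.13), and Des, the muscle filament desmin, at 2.99 ± 0.614 and 5.48 ± 1.40 CPM (−0.86 ± 0.24). Tcap was at 0.789 ± 0.217 and 3.50 ± 3.99 CPM (−1.79 ± 0.46), with 9.47 CPM in the anti-CTLA-4 library.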
